A study of Mus musculus with 21 samples.

Results

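Lists of single-nucleotide variants (SNVs) from exome sequencing were compared between mouse embryonic stem cells (ESCs) kept in A2iL medium and in LCDM medium. All calls of the 4 lists were taken, from 4 of the 21 samples of the series: 1839 and 1821 calls in A2iL libraries 3 and 5, and 1783 and 1795 calls in LCDM libraries 3 and 5. Together they held 3191 distinct sites, of 4358 in the 10 ESC lists. The series asked how culture medium bears on genome stability, with 5 ESC media of 2 libraries each, and with tumours of mice derived from such cells. A2iL was serum-free N2B27 with 1000 IU leukaemia inhibitory factor (LIF), 3 µM of the GSK3 inhibitor CHIR99021 and 1.5 µM of the Src kinase inhibitor CGP77675. LCDM was the same base with 1000 IU LIF, 3 µM CHIR99021 and 2 µM each of the additives labelled Dim and Mih. Both sides carried the strain label C57BL6X129S6F1 and grew on feeder cells, as did the 2iL and SL libraries, while 2iL-F had none. Every ESC list was called against a single genomic DNA of mouse embryonic fibroblasts (MEFs). What the numbers 3 and 5 stand for is not stated, and nothing in the labels says that the 2 libraries of a medium were separate cultures. P-values therefore measure only the spread between these libraries. Variant lists carry no expression, so the ESC identity of the samples could not be set against marker genes.

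An ESC culture is a population of dividing clones, and a change that arises in a founder cell is passed on to all its descendants. In a diploid genome, a heterozygous change shared by all cells is read on about as many molecules as the reference base, whereas a change in part of the cells, or in the copies of a duplicated gene, is read on fewer. Inhibitors of MEK, Src and GSK3 hold mouse ESCs in a naive state, and LCDM is a cocktail developed for cells with extended potential.

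The reference letters around a few sites show what a difference between the lists looks like at the base level. Each line gives the plus or minus strand of RefSeq GRCm38.p6, which has the coordinates of the files' mm10 build, and the capital marks the position of the call.
Gm9257 upstream, T>A in both A2iL lists, chr12:19624133-19624162, plus strand: acatgaatatatggTcaaggaagcgtacgt
Gm9611 upstream, G>A on the plus strand in both A2iL lists, chr14:42297334-42297363, minus strand: ttccttcagatcctCatgggttcccaagca
Gm40987 start region, G>C on the plus strand in both LCDM lists, chr13:65990976-65991005, minus strand: taaggggacctcagCgaagctctgaagttg
Vmn2r98 upstream, A>C in LCDM 3, chr17:19053296-19053325, plus strand: tccatgtgaaaaaaAaaaaaaaaaaaaaaa
Vmn2r98 upstream, A>C in A2iL 5, chr17:19053297-19053326, plus strand: ccatgtgaaaaaaaAaaaaaaaaaaaaaaa
The first had 7 of 55 and 3 of 35 alternative reads in A2iL 3 and 5. The second had 17 of 223 and 9 of 210, and the third 2 of 6 in each LCDM library. The last pair lies in a run of A upstream of a vomeronasal receptor gene, where A2iL 5 and LCDM 3 each had 2 of 5 alternative reads at neighbouring bases. Such a pair enters the lists as different sites. All 65 sites that fell in a promoter window of the reference table carried the listed reference base.

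No list held 2 calls of a chromosome closer than 10 kb, the smallest gaps being 10018 and 10032 bp in A2iL 3 and 5 and 10033 and 10026 bp in LCDM 3 and 5. A site can therefore be missing from a list because a neighbour was kept. An intergenic stretch of chromosome 17 shows this: position 21284069 (C>T) was listed in both A2iL libraries, with 9 of 76 and 14 of 72 alternative reads, and in neither LCDM library. Position 21284071 (G>A) was listed in both LCDM libraries, with 14 of 50 and 13 of 45 reads, and in neither A2iL library. Counts of sites on 1 side therefore include sites whose absence cannot be read, and the text says below which sites had no call of the other medium within 10 kb. The depth at a site in a list that lacks the call is not recorded.

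Among the 3191 sites, 855 (26.8%) stood in all 4 lists and 1307 (41.0%) in a single list. Both A2iL lists and neither LCDM list held 125 sites (3.92% of the sites), and both LCDM lists and neither A2iL list held 97 (3.04%). These shares lay among those of the other 18 ordered pairs of ESC media, 2.82 to 4.38%. Sites shared by a single A2iL and a single LCDM list numbered 83 to 95 for the 4 pairs. With no call of the other medium within 10 kb, 51 A2iL-side and 43 LCDM-side sites were left. The Jaccard index, shared over combined sites, was 0.516 for the A2iL pair, 0.468 for the LCDM pair and 0.475 to 0.483 between media. The A2iL pair thus lay above all pairs across media and the LCDM pair below them.

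**Figure D1:**
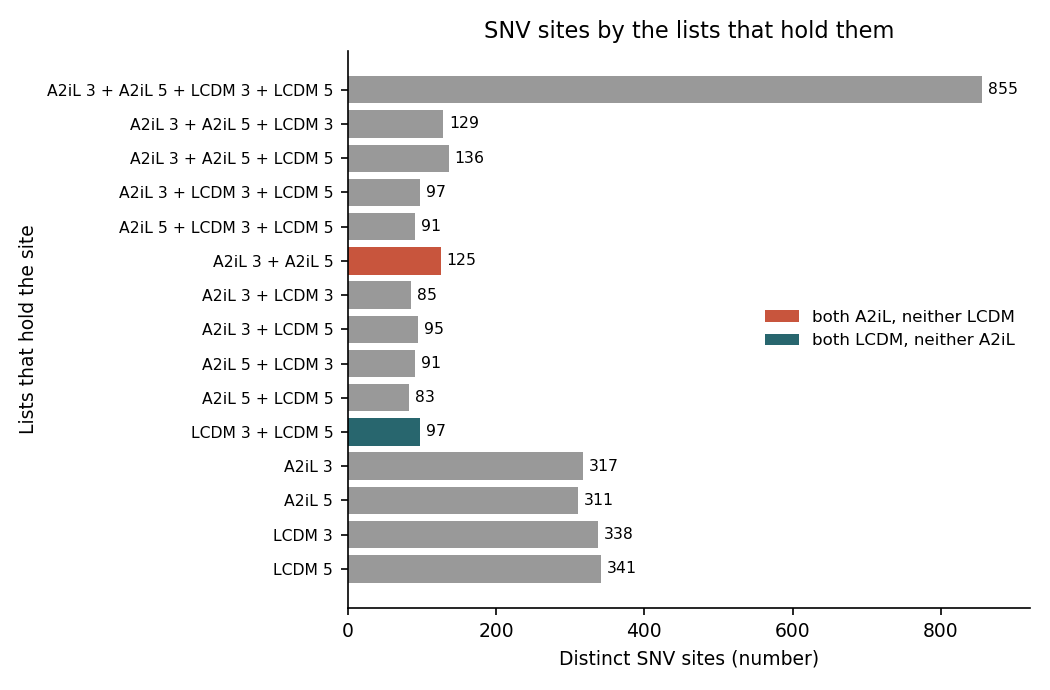
Horizontal bars count the distinct SNV sites (x axis, number) held by each combination of the 4 lists (y axis). The bar for both A2iL lists and neither LCDM list reaches 125, the bar for both LCDM lists and neither A2iL list 97, and the combinations of 1 A2iL and 1 LCDM list 83 to 95.

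Protein-changing SNVs on the A2iL side only numbered 14, or 4.49% of the 312 protein-changing sites of the 4 lists. The other 18 ordered pairs of ESC media had 4 to 18 such sites. Of the 14 sites, 9 lay in segmental duplications, where reads of near-identical copies can be mixed: Vmn1r175 S205F, Vmn1r121 I112M and Vmn2r33 P685S (vomeronasal receptors), Olfr1333 R174M (an olfactory receptor), Hrnr H2249Y (hornerin of the cornified skin layer), Prh1 H116Q, Serpina1c T398S, Gm13088 E217D and Gm13247 D17Y. The other 5 were Peak1 P64T, Smarce1 E380K, Rps2 R187L, Tmcc1 T577A and Dnd1 P218T. Peak1, a pseudokinase of the actin cytoskeleton, had 15 of 194 and 11 of 161 alternative reads in A2iL 3 and 5 (chromosome 9, position 56260453, exon 4). Smarce1, a subunit of the BAF chromatin remodelling complex, had 10 of 165 and 7 of 152 (chromosome 11, position 99210167, exon 11). Neither had an LCDM call within 10 kb, although Peak1 P64T was listed in 3 and Smarce1 E380K in 1 of the other 6 ESC libraries. Rps2, a protein of the small ribosomal subunit, Tmcc1 and the germ-cell RNA-binding protein Dnd1 each had a call of at least 1 LCDM list within 98 bp. Every one of the 14 was also listed in at least 1 library of another medium.

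On the LCDM side there were likewise 14 protein-changing SNVs (4.49% of 312), and 1 splice-site SNV. In 4 of these 15 no other ESC list held the site or any call within 10 kb. Nol8 E464K, in a nucleolar protein, had 19 of 77 and 22 of 67 alternative reads in LCDM 3 and 5 (chromosome 13, position 49661807, exon 7). Slc7a6os S263C had 36 of 134 and 33 of 136 (chromosome 8, position 106202236, exon 4), and Arpp21 T390M, in a cAMP-regulated phosphoprotein, 3 of 24 and 6 of 17 (chromosome 9, position 112127433, exon 12). The splice-site SNV lay in Tbk1, a kinase of innate immune signalling and autophagy, with 10 of 46 and 15 of 47 reads (chromosome 10, position 121551597, C>T). Bcam N227D, in a laminin-binding adhesion molecule, had the highest fractions among these protein-changing and splice-site SNVs, 0.588 and 0.657 (10 of 17 and 23 of 35 reads), and stood in 3 other ESC lists at 0.591 to 0.692. Both A2iL lists held a call within 10 kb of it, the nearest at 8900 bp. Adh5 V47I, in the enzyme that oxidises the glutathione adduct of formaldehyde, had 9 of 97 and 10 of 82 reads, with the nearest A2iL call 4071 bp away. The remaining 9 were Rps2 G171E, the vomeronasal receptors Vmn1r79 D46A, Vmn1r121 A280S, Vmn2r16 D189N and Vmn2r32 P685T, the olfactory receptors Olfr316 M69I and Olfr373 F252Y, Gm13088 R457H and Gm15284 K30N.

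Some genes appeared on both sides with different changes. Rps2 had R187L at 36 of 473 and 33 of 482 reads in A2iL 3 and 5, and G171E at 29 of 389 and 32 of 359 in LCDM 3 and 5, 48 bp apart in exon 4. Vmn1r121 had I112M (46 of 532 and 54 of 552 reads) on the A2iL side, and A280S (20 of 119 and 10 of 82) on the LCDM side, 502 bp apart. Gm13088 did so at a distance of 1392 bp. In each of these genes the changes lie closer than 10 kb, so the absence of either from a list cannot be read. Counted by gene, 7 of 167 genes with a protein-changing call in both A2iL lists had no coding call in either LCDM list. For LCDM, 10 of 157 genes had none in either A2iL list. Serpina1c and Vmn1r175 among the A2iL genes, and Adh5, Bcam and Gm15284 among the LCDM genes, had a call of the other medium within 10 kb, so absence cannot be read there.

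Sites listed by no other ESC medium numbered 16 in A2iL and 21 in LCDM, in all. Some had calls of other lists nearby: 6 of the A2iL-only and 15 of the LCDM-only sites had none within 10 kb. Outside segmental duplications and repeats lay 5 of the 16 A2iL-only and 15 of the 21 LCDM-only sites. With no call of any other ESC list within 10 kb and at least 20 reads in both libraries as well, 1 and 10 were left. The single A2iL site lay in the 3' UTR of Rplp0, a protein of the large ribosomal subunit, with 4 of 53 and 3 of 45 reads, and the MEF control had 1 alternative read of 35 there. The 10 LCDM sites had 0 alternative reads in the control, as did all 97 sites on the LCDM side. Of the 10, 8 had a mean fraction of 0.1 or more, a threshold set after the values were seen, and spanned 0.15 to 0.328 per library. Besides Nol8, Slc7a6os and Tbk1, these lay in Lca5l (synonymous, 19 of 79 and 14 of 85 reads), Abhd12 (intron, 6 of 40 and 8 of 38), Nudt3 (intron, 9 of 47 and 6 of 37), Skint5 (intron, 5 of 23 and 4 of 21) and Yeats4 (3' UTR, 5 of 29 and 5 of 22). By the same steps 2iL had 11 sites and 0 at that fraction, 2iL-F 6 and 3, and SL 0. These counts are descriptions and were not tested.

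The sites in all 4 lists allow the allele fraction, alternative over all reads, to be compared with the libraries as replicates. At these 855 sites the median of the mean fractions was 0.301 in A2iL and 0.3 in LCDM, and the median difference in log odds was -0.07. The fractions of both A2iL libraries lay above those of both LCDM libraries at 122 sites (14.3%) and below them at 189 (22.1%). By limma on the log odds of the reads, with Benjamini-Hochberg adjustment over the 855 sites, 3 sites (0.351%) passed an adjusted p of 0.05, 1 (0.117%) higher and 2 (0.234%) lower in A2iL. The number of calls moved with the setting: it was 0 when any of the 4 libraries was left out, which leaves 2 against 1 with the lone library assumed to vary like the other side, and it was 16 when 20 reads were asked of each library and 14 when reads were summed per medium in Fisher's exact test (1.64%).

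The site higher in A2iL was an intergenic G>A change on chromosome 12, position 20071878, in a segmental duplication. It had 58 of 66 and 54 of 59 alternative reads in A2iL 3 and 5, against 22 of 49 and 16 of 38 in LCDM 3 and 5 (limma adjusted p = 0.0189). The other 6 ESC libraries ranged from 0.818 to 1 there, so the LCDM pair was the lower one. Of the 2 sites lower in A2iL, an intergenic A>C on chromosome X, position 169368329, had 19 of 23 and 19 of 24 reads in A2iL, and 20 of 20 and 21 of 21 in LCDM (limma adjusted p = 0.0189). The synonymous R54R of Gm13286 (chromosome 4, position 88758005, segmental duplication) had 137 of 146 and 117 of 136 reads in A2iL, and 99 of 99 and 98 of 98 in LCDM (limma adjusted p = 0.0269). At both, the LCDM libraries held no reference read, where the log odds rest on the 0.5 read added to each allele. At Gm13286 R54R the fraction was 0.881 and 0.812 in SL 3 and 5, and 0.991 to 1 in the 2iL and 2iL-F libraries. At the chromosome X site, not listed in 2iL-F 3 and SL 5, the other ESC libraries had 0.897 to 1.

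**Figure D2:**
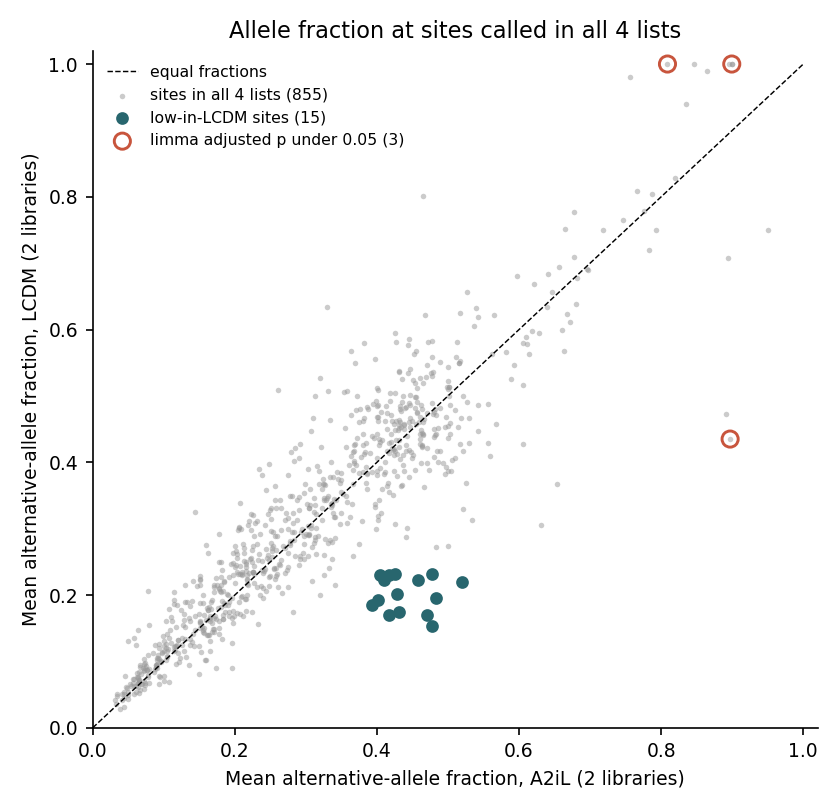
Each point is a site in all 4 lists, by its mean alternative-allele fraction in A2iL (x axis) and LCDM (y axis), with the line of equal fractions. Open circles mark the 3 sites past the limma threshold, and the large filled points the 15 sites with mean fractions under 0.25 in LCDM that are described in the text, all below the line.

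Below that threshold, a group of sites outside segmental duplications and repeats stood off the line of equal fractions. To describe it, sites were taken that all 10 ESC lists held with at least 20 reads each, A2iL and LCDM included, and whose mean fraction over the other 6 ESC libraries was 0.35 to 0.65. This rule, and the line at 0.25 below, were set after the values were seen, so the result is a description with no test. Of the 155 such sites, 1 (0.645%) had a mean fraction under 0.25 in A2iL, and 15 (9.68%) in LCDM. The A2iL site was an intronic C>T in the nuclear export receptor gene Xpo7, with 9 of 42 and 13 of 46 reads in A2iL 3 and 5, against 8 of 30 and 19 of 36 in LCDM 3 and 5, which overlap. Between 0.25 and 0.3 there were 0 A2iL and 1 LCDM sites. The median over the 155 sites was 0.441 in each medium. Taking each medium against the libraries of the other 4 in the same way, the counts under 0.25 were 1 for A2iL, 15 for LCDM, 1 for 2iL, 0 for 2iL-F and 0 for SL. Single libraries had 2 and 0 such sites in A2iL 3 and 5, and 14 and 15 in LCDM 3 and 5. Just outside the line in LCDM came an intronic Myh14 site (mean 0.288) and Ccne1 R134C (mean 0.306).

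**Figure D3:**
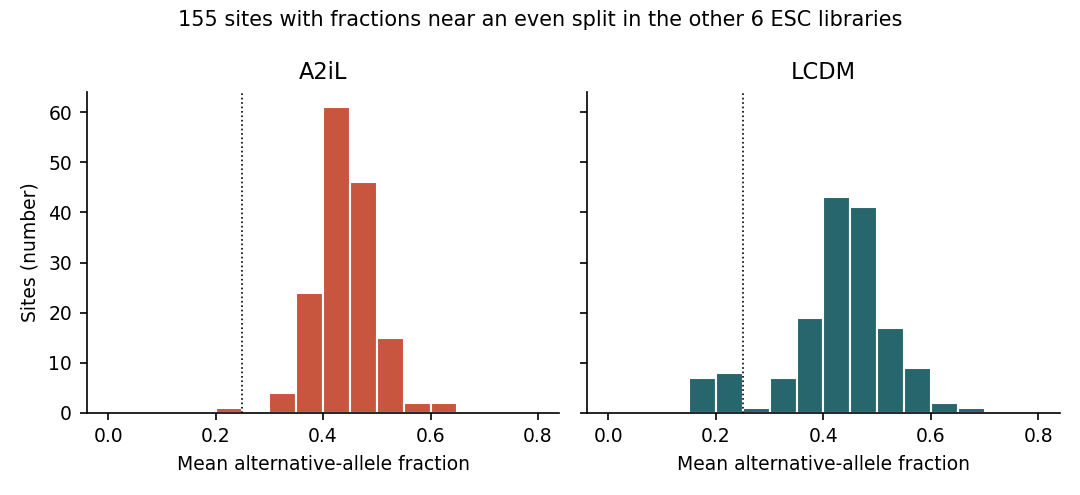
Histograms count the 155 sites by mean alternative-allele fraction (x axis, bins of 0.05) in A2iL (left) and LCDM (right), with a dotted line at 0.25. Both have their main peak between 0.4 and 0.5, and LCDM has 15 sites under 0.25 where A2iL has 1. The LCDM bin from 0.25 to 0.3 holds 1 site.

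At all 15 sites both LCDM libraries were below all 8 other ESC libraries. The 15 were chosen for a low LCDM fraction at sites of middle fraction in 6 of these libraries, which favours this order. Among the 155 sites, intronic Myh14 and Ncstn sites, Ccne1 R134C and the synonymous Rbbp9 V149V had the same order. Fractions were 0.326 to 0.538 in A2iL, 0.12 to 0.267 in LCDM and 0.286 to 0.706 in the other 6 libraries. The MEF control had 0 alternative reads of 1372 over the 15 sites. The lists were called against this control, and only 6.13 to 7.14% of all calls in the 4 libraries had an alternative read there. The deepest was an intergenic G>T on chromosome 3, position 52613341, with 273 of 572 and 260 of 594 alternative reads in A2iL 3 and 5, against 86 of 428 and 112 of 457 in LCDM 3 and 5. Here the A2iL fractions were 0.477 and 0.438, and the LCDM fractions 0.201 and 0.245. The limma adjusted p over the 855 sites was 0.0976.

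Coding sites made up 7 of the 15, and 3 of these changed the protein. The shares of such sites among the sites they were drawn from were not counted. Git1 R123H, in a GTPase-activating protein for ARF GTPases (chromosome 11, position 77499807, exon 4), had 35 of 86 and 41 of 96 reads in A2iL 3 and 5, against 9 of 56 and 13 of 74 in LCDM 3 and 5. Its fraction was 0.373 to 0.505 in the other 6 libraries (limma adjusted p = 0.0825). Ssh2 N378I, in a phosphatase that activates the actin-severing protein cofilin (same chromosome, position 77437742), had 45 of 104 and 41 of 111 reads in A2iL, against 20 of 79 and 10 of 75 in LCDM (limma adjusted p = 0.355). The third was Cep192 D2077V, in a protein of centrosome maturation, with 21 of 56 and 21 of 51 reads in A2iL, against 5 of 27 and 7 of 38 in LCDM (limma adjusted p = 0.0977). None of the 3 passed the test.

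The 4 synonymous sites lay in Snapc4, Aifm2, Prdm16 and Trim31. Snapc4, a subunit of the complex that starts small nuclear RNA transcription, had 68 of 155 and 72 of 143 reads in A2iL 3 and 5, against 25 of 114 and 12 of 100 in LCDM 3 and 5 (Q335Q, chromosome 2, position 26373437, limma adjusted p = 0.104). Aifm2, an oxidoreductase that protects from ferroptosis, had 21 of 40 and 28 of 66 reads in A2iL, against 10 of 54 and 4 of 33 in LCDM (A287A, limma adjusted p = 0.0825). The other 8 were intronic in Nedd4l and Skp1a (parts of ubiquitin ligases), B9d1 (a protein of the ciliary transition zone), Col7a1 (the collagen of anchoring fibrils), Ablim3, Ncoa5 and Pnldc1, or intergenic. The lowest mean fraction among these 8 was 0.411 in A2iL, for Skp1a, and 0.175 in LCDM, for Nedd4l, and the highest 0.519 in A2iL, for Ablim3, and 0.231 in LCDM, for Pnldc1.

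**Figure D4:**
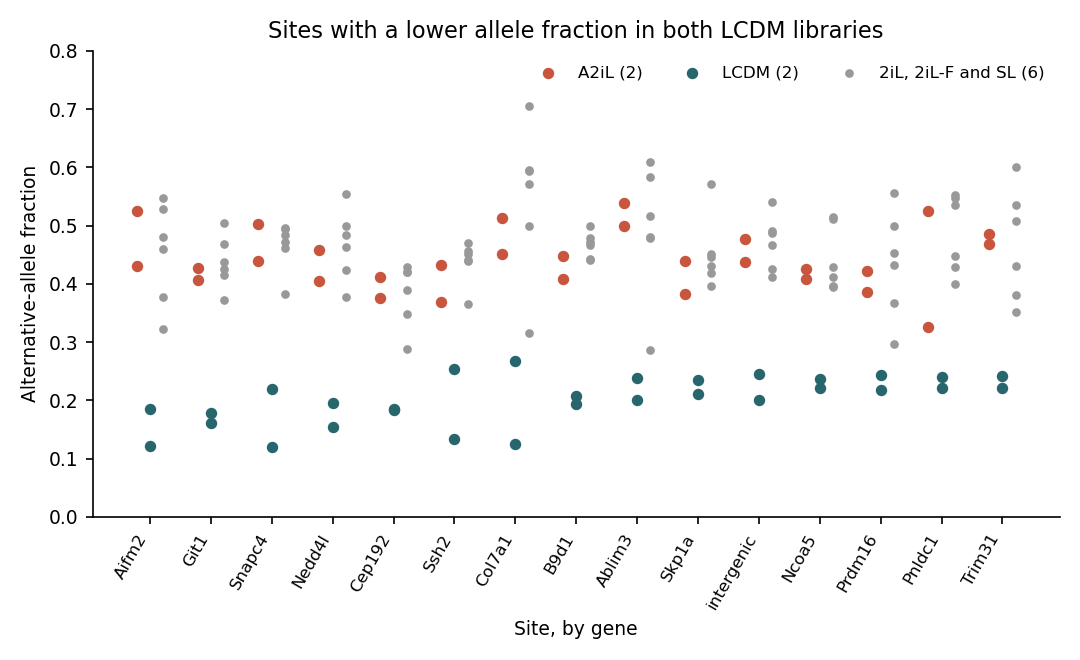
Alternative-allele fraction (y axis) in each library at the 15 sites (x axis, by gene): A2iL and LCDM with 2 points each, the other ESC media with 6. The LCDM points lie at 0.12 to 0.267 and below every other point of their site, and the A2iL points at 0.326 to 0.538.

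The 15 sites lay on 8 chromosomes, with 4 of the 9 sites of that kind on chromosome 11, 3 of 14 on chromosome 18, 2 of 22 on chromosome 2 and 2 of 4 on chromosome 17. The other 4 lay singly on chromosomes 3, 4, 9 and 10. Relative read depth at the 15 differed by -0.07 in the median (A2iL minus LCDM, log2), against -0.03 over the 855 sites. By substitution, 7 were C>T, 5 C>A, 2 T>A and 1 C>G. The share of each class among the sites they were drawn from was not counted, so these counts tell nothing particular to the 15. In limma over the 855 sites 0 of the 15 passed, and likewise 0 with any 1 library left out, with the replicate block, with 2 reads added, or with the 4 libraries fitted on sites of all 10 lists. With 20 reads asked of each library 9 of the 15 were among 16 calls of 723 sites, and outside segmental duplications and repeats 8 were among 14 of 475. At base quality of at least 30 there were 3 among 9 of 838, with depth weights 7 among 9 of 855, with all 10 ESC libraries 7 among 16 of 636, and in Fisher's exact test on summed reads 9 among 14 of 855. The 15 were chosen for a low LCDM fraction, so these shares support nothing further.

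Ccne1 encodes cyclin E1, a partner of CDK2 at the start of DNA replication. Its R134C site followed the same order at a higher level (chromosome 7, position 38102842, exon 6). It had 27 of 43 and 40 of 63 alternative reads in A2iL 3 and 5, against 14 of 44 and 12 of 41 in LCDM 3 and 5. The LCDM fractions of 0.318 and 0.293 lay below all others, the other 6 libraries ranging from 0.517 to 0.681. The log odds were 1.33 ± 0.18 higher in A2iL (SE), with a limma adjusted p of 0.0825, which did not pass. Of the 14 settings, the main one included, it passed in 6 and did not pass in 8, which include each library left out.

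The opposite order was seen at sites close to fixation. By a rule set after the values were seen, with the 4 libraries of 2iL and 2iL-F as the guide, 5 sites had a mean fraction of at least 0.9 there and 20 reads in all 10 libraries. At 4 of them both A2iL libraries lay below both LCDM libraries, an order found at 22.1% of the 855 sites. The exception was the chromosome 12 site above, where LCDM was lowest. Ddias P706L, in a protein named for its part in the response to DNA damage (chromosome 7, position 92858589, exon 7), had 85 of 100 and 66 of 75 reads in A2iL 3 and 5, against 53 of 53 and 48 of 49 in LCDM 3 and 5. The A2iL libraries are the lower pair, without overlap. Its fraction was 0.958 to 0.984 in the 2iL and 2iL-F libraries, and 0.855 and 0.746 in SL 3 and 5 (limma adjusted p = 0.0895). An intergenic site in a segmental duplication of chromosome X, position 149352071, had 23 of 29 and 28 of 39 reads in A2iL, against 28 of 28 and 25 of 26 in LCDM (limma adjusted p = 0.0895), and 0.814 and 0.875 in SL. At Ddias, this chromosome X site and Gm13286 R54R, all A2iL and SL fractions lay below those of LCDM, 2iL and 2iL-F.

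The 6 gene lists, of 21 to 39 genes each, for pluripotency, cell cycle and p53, DNA repair and replication, DNA methylation and chromatin, Src, Wnt and MAPK signalling, and cancer, held 0 of the 125 A2iL-side and 0 of the 97 LCDM-side sites. Each list held only 1 to 7 of the 3191 sites, so at 3.92 and 3.04% of sites these counts of 0 tell nothing of the genes. Coding sites were listed in 8 of these genes, Ccne1 among them. Nanog P72T, in a transcription factor of the pluripotency network, had fractions of 0.289 and 0.303 in A2iL 3 and 5, and 0.261 and 0.267 in LCDM 3 and 5. The groups do not overlap, but the limma adjusted p was 0.897. Nanog has processed pseudogenes, and whether their reads were mixed in was not tested. Dnmt3b, which sets new DNA methylation, had K383R at 0.186 and 0.25 in A2iL, and 0.221 and 0.229 in LCDM, which overlap. The synonymous sites of Pcna (T206T), the sliding clamp of replication, and Pold1 (D287D), a DNA polymerase, stood in all 4 lists with overlapping fractions, as did Ccnb2 C314C. Cdk4, the G1 kinase partner of cyclin D, had A23T in A2iL 5 and LCDM 3 (20 of 76 and 19 of 62 reads), and V51I in A2iL 3 and LCDM 5 (25 of 103 and 23 of 77). These Cdk4 sites lie at positions 127064302 and 127064386 of chromosome 10, closer than 10 kb, so the absence of either from a list cannot be read. The only coding site of these genes on 1 side was Mad2l1 T176A, in a spindle checkpoint protein, with 38 of 90 reads in LCDM 5. Both A2iL lists held Mad2l1 A6A, 4307 bp away.

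Depth behind the calls was higher in A2iL. The median was 72 and 69 reads in A2iL 3 and 5, and 54 and 56 in LCDM 3 and 5, a difference of 15.5 reads (exact permutation, two-sided p = 0.333, the smallest that 2 against 2 libraries can give). This p is the floor for every library-level value that follows, so none could pass a threshold. Site by site, relative depth gave no call: 0 of 855 sites (0.0%) passed in limma after adjustment, with 48 at an unadjusted p under 0.05. The median allele fraction was 0.239 and 0.246 in A2iL, and 0.25 and 0.254 in LCDM, without overlap (difference -0.0095).

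Coding calls numbered 397 and 379 in A2iL 3 and 5, and 383 and 398 in LCDM 3 and 5. Of these, 50.9 and 51.2% in A2iL and 52.2 and 53.5% in LCDM changed the protein, a difference of -1.83 percentage points without overlap. Stop gains numbered 4 and 2 in A2iL, and 4 and 3 in LCDM. Calls in segmental duplications or repeats made up 57.5 and 55.6% in A2iL, and 55.7 and 56.2% in LCDM, which overlap.

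Among the 6 substitution classes, C>T was the most frequent, with 38.6 and 37.5% of calls in A2iL and 37.8 and 40.2% in LCDM. Classes that did not overlap were C>G (7.83 and 7.80% in A2iL, 8.19 and 8.69% in LCDM) and T>A (10.6 and 10.5% in A2iL, 10.2 and 9.64% in LCDM). Outside segmental duplications and repeats the T>A difference turned round, to -0.32 percentage points. T>G had the widest spread, at 8.75 and 11.3% in A2iL, and 9.98 and 7.52% in LCDM.

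The T>G share moved with base quality, the mean sequencing score of the bases behind a call. Medians over all calls were 37 in each of the 4 libraries, but a base quality of 20 or less was found at 11 and 39 calls in A2iL 3 and 5, and at 2 and 1 calls in LCDM 3 and 5. The other 6 ESC libraries had 1 to 11 such calls, so A2iL 5 alone lay outside their range on the high side. Nearly all of these were T>G, with 11 and 38 calls in A2iL, and 0 and 1 in LCDM. Of the 38 in A2iL 5, 36 stood in no other ESC list, 4 lay in segmental duplications or repeats, and 1 was coding. Among the 156 T>G calls of A2iL 5 that scored 30 or more, 8 stood in no other list and 104 lay in segmental duplications or repeats. With calls under 30 left out, T>G made up 7.91 and 8.91% in A2iL, and 9.91 and 7.39% in LCDM, and the difference of the means was -0.24 percentage points, against 1.25 over all calls. Over all calls it was 0.0027 without A2iL 5 and 0.023 without LCDM 5.

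**Figure D5:**
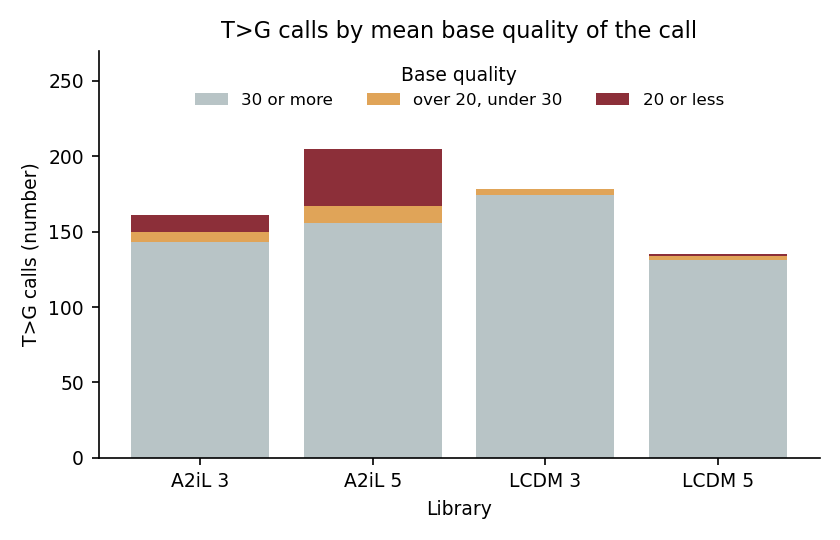
Stacked bars count the T>G calls (y axis, number) of the 4 libraries (x axis) by mean base quality. A2iL 5 has 38 calls at 20 or less and A2iL 3 has 11, against 0 in LCDM 3 and 1 in LCDM 5, while calls at 30 or more number 143 and 156 in A2iL 3 and 5 and 174 and 131 in LCDM 3 and 5.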

How the data were processed

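Genomic DNA was captured with an Agilent exome kit, per the labels' protocols. BWA, SAMtools and Picard with build mm10 are named in the submitters' processing notes, without versions. No SNV caller is given in the sources read here. The authors deposited, per the file headers, a line per call with reads per allele (count), mean base quality (score), depth (count) and allele fraction of the library and of the MEF control, and gene annotation. Protein changes follow the first transcript listed. MEF values were identical at 1884 of 1884 shared sites. Between libraries, 0.241 to 0.877% of shared calls had identical library reads.

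From these, Python 3.11.15 with pandas 2.3.3 gave the counts and exact two-sided permutation tests of library values. Fisher's exact tests were run in R 4.3.3. There limma 3.58.1 fitted the log odds of reads (0.5 added to each allele) and log2 depth relative to the library median. The fit of log odds was tested on simulated data. Matplotlib 3.10.9 drew the figures. By rule, all protein-changing or splice-site SNVs on 1 side, sites past the threshold of a fit and coding SNVs of listed genes called on 1 side were named. The coding SNVs of listed genes called on both sides, Ccne1 R134C among them, fell outside this rule. Other named sites were chosen after their values were seen. Members and lists were chosen with earlier results of these data known. No label says that the shared numbers 3 and 5 pair libraries, so the fits have no block. Depth is not recorded where a call is absent. Reads carry no molecular identifiers and are not independent molecules. The alternatives tried are given at the end, and tumour lists were used only for look-up.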

Additional observations from a re-analysis of the deposited data

How the results depend on the processing

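Of 179 alternative values, 14 reversed, and 26, all counts of sites, moved by over 1.5 times or to 0. The other 139 were counts within 1.5 times, or differences that did not turn round. For the Jaccard difference, a change within the spread of the within-side pairs was also asked. For values compared by 2 against 2 libraries, not turning round says nothing of size. All differences are A2iL minus LCDM, shares in percentage points. The transition share turned to 0.0972 at base quality of at least 30 (-2.31 to 0.305 leaving out 1 library), T>A to -0.32 outside segmental duplications and repeats, and T>G to -0.238 at base quality of at least 30. T>C turned to 0.363 at 20 reads or more, 0.563 at 5 alternative reads or more, 0.441 at base quality of at least 30 and 0.257 with no alternative read in the control. Leaving out 1 library gave 0.0027 to 2.51 for T>G, -0.406 to 0.366 for T>C, -2.16 to 0.201 for C>T, -0.323 to 1.52 for the duplication and repeat share and -0.0111 to 0.039 for the Jaccard difference. Sites on the A2iL side numbered 45 outside segmental duplications and repeats, 51 with no LCDM call within 10 kb and 254 to 442 leaving out 1 library. On the LCDM side these were 36, 43 and 188 to 438, since a single list then stands for a medium. Sites with a different allele fraction numbered 16 at 20 reads or more, 14 outside segmental duplications and repeats, 9 at base quality of at least 30, 16 with all 10 ESC libraries, 9 with depth weights, 1 with 2 reads added and 14 by Fisher's exact test, which leaves out the spread between libraries. Leaving out any 1 of the 4 libraries gave 0 by limma, with 52 to 83 sites at an unadjusted p under 0.05, and on sites of all 10 lists, an alternative added after seeing the data, 2. Otherwise the causes were not tested. Sites under 0.25 in A2iL numbered 0 with fractions of 0.4 to 0.6 asked of the other 6 libraries and 0 to 2 leaving out 1 library, and in LCDM 14 to 15. With the number 3 or 5 as a replicate block, 3 sites again passed for allele fraction, and calls per library differed by 41 (exact sign-flip p = 0.5). Libraries 3 of both media deviated from their side means with r = 0.0198 over 855 sites. With only 2 pairs, and read sampling in every fraction, this cannot tell what a shared number stands for. Calls differed by 118 at 20 reads or more, 114 at 5 alternative reads or more, 7 once duplications and repeats were left out, 14.5 at base quality of at least 30 and 25.5 if the control had no alternative read, and median base quality by -1 at the first 2 of these. Leaving out 1 library gave 32 to 50 for calls, -2.48 to -1.18 for the protein-changing share, 14 to 17 for median depth and -0.013 to -0.006 for median fraction. Depth limits these lists: LCDM calls had fewer reads, and some calls rest on 2 alternative reads.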

Other observations

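The sites were looked up in the lists of tumours from mice made from A2iL cells (4 lists) and LCDM cells (2 lists), whose assay the labels leave unclear. Of the 3191 ESC sites, 165 (5.17%) stood in at least 1 of these 6 lists. The Rplp0 3' UTR site, listed in both A2iL ESC libraries and in no other ESC list, stood in 3 of the 4 A2iL tumour lists and in 0 of the 2 LCDM tumour lists. Yeats4 and Nudt3, listed in LCDM ESCs alone, stood in all 4 A2iL tumour lists and in 1 of the 2 LCDM tumour lists. Other sites listed in LCDM ESCs alone were a 3' UTR site of Glrx3, in 3 of the 4 A2iL and 0 of the 2 LCDM tumour lists as for Rplp0, and an intronic site of Rnf39, in 2 of the 4 and 0 of the 2. Nol8 E464K, Slc7a6os S263C, Arpp21 T390M and the Tbk1 splice site stood in 0 of the 6. Of the 125 A2iL-side sites, 4 to 7 stood in each A2iL tumour list, and 4 and 0 in the LCDM tumour lists. Of the 97 LCDM-side sites, 5 to 6 stood in each A2iL tumour list, and 4 and 0 in the LCDM tumour lists. The share of all 3191 sites in each single tumour list was not counted. These counts per list therefore tell nothing particular to the A2iL-side or LCDM-side sites.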
